A study of Mus musculus with 4 samples.

Results

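*Pou3f1*, *Pou3f2* and *Pou3f3*, which encode class III POU transcription factors, and *Pou4f1* and *Pou4f2*, which encode class IV factors, were followed in mouse embryonic stem cells (ESCs) taken through neural differentiation with or without *Zfp57*. The 5 genes were chosen by name and class, with earlier results of these data known. They are 5 of the 55602 genes in the deposited count table. RNA sequencing of total RNA was made in biological duplicate, so that 2 wild-type (WT) and 2 *Zfp57*-/- libraries were compared. Both groups derive from JB1, male ESCs whose mother was of the JF1 strain and whose father was C57BL/6 (B6), so that reads over a sequence difference can be assigned to the maternal or the paternal allele. The mutant line was derived from JB1 and stands for 1 knockout clone, so that clone and genotype cannot be told apart. All 4 cultures were kept as ESCs with 3 µM of the Gsk3 inhibitor CHIR99021 and differentiated in a defined medium. They were given 1 µM of the Sonic hedgehog inhibitor cyclopamine from day 2 to day 10 and harvested on day 12. The sample titles name all 4 as neural precursor cells, while the authors describe the mutant cells as only partially differentiated.

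POU factors bind DNA through a POU-specific domain joined by a linker to a POU homeodomain. Class III factors, also called OCT6 (*Pou3f1*), BRN2 (*Pou3f2*) and BRN1 (*Pou3f3*), act in neural progenitors and in the making of upper-layer cortical neurons, often together with SOX proteins, and OCT6 is also made in the epiblast and in myelinating glia. Class IV factors, BRN3A (*Pou4f1*) and BRN3B (*Pou4f2*), act in postmitotic neurons: BRN3A in sensory ganglia, the habenula and other sites, and BRN3B above all in retinal ganglion cells.

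The members are related in sequence, which bears on how reads can be assigned to them, and their most alike coding stretch is therefore shown first. In the GENCODE M21 annotation of GRCm38, *Pou3f1*, *Pou3f2* and *Pou3f3* each have 1 exon, with a coding length of 1347, 1335 and 1491 bases without the stop codon. *Pou4f1* has 3 exons with 1263 coding bases, and *Pou4f2* has 2 exons with 1233. Aligned coding bases were identical at 70.1% between *Pou3f2* and *Pou3f3* and at 73.8% between *Pou4f1* and *Pou4f2*. Between a class III and a class IV member, identity lay between 50.6% (*Pou3f2* and *Pou4f1*) and 55.5% (*Pou3f1* and *Pou4f1*). The longest run of identical bases in any pair was 71, between *Pou4f1* and *Pou4f2*, and within class III it was 38, between *Pou3f1* and *Pou3f2*. The most conserved gap-free stretch of 60 bases lies in the part of each gene that encodes the POU-specific domain, in the single exon of the class III genes and in coding exon 2 of the class IV genes, and 42 of its 60 positions were identical in all 5 genes. It is printed 5′ to 3′ on the coding strand, with capitals for the bases that differ from *Pou3f2*. It lies at chr4:124658471-124658530 (+) in *Pou3f1*, chr4:22487251-22487310 (-) in *Pou3f2*, chr1:42698108-42698167 (+) in *Pou3f3*, chr14:104466120-104466179 (-) in *Pou4f1* and chr8:78435128-78435187 (-) in *Pou4f2*.
Pou3f1: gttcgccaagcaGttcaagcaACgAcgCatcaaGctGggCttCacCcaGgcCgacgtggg
Pou3f2: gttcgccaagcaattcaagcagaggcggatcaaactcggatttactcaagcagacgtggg
Pou3f3: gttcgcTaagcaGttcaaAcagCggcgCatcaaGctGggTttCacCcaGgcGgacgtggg
Pou4f1: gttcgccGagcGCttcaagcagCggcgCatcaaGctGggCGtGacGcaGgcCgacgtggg
Pou4f2: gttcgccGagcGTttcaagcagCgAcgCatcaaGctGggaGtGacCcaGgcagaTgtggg
Within this stretch *Pou3f1* and *Pou3f3* each differed from *Pou3f2* at 12 positions, and *Pou4f1* and *Pou4f2* each at 13. The authors kept uniquely aligned paired reads, and a read within a run of identical bases could be lost for lack of a unique position. The longest such run, of 71 bases, is shorter than an untrimmed read, so that this concerns shorter, trimmed reads.

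Each library held between 7663520 and 10337082 reads assigned to genes, and 19995 genes entered the test. A gene with 3 counts, taken here as the floor, corresponded to between 0.286 and 0.371 CPM, the count scaled to the normalised library size. Each of the 5 members passed the filter on low counts. Floors and intervals on shares cover counting error only. The targeted gene *Zfp57* had 392 and 249 counts in WT and 158 and 144 in *Zfp57*-/- libraries, a log2 fold change of -1.19 ± 0.32 (SE, adjusted p = 0.0224). Counts over the whole *Zfp57* gene include exons outside the deletion, so that this value does not check the genotype. Of the 6 pluripotent cell markers, all 6 were higher in *Zfp57*-/- cells, with a summed level of 4.08 and 7.35 CPM in WT and of 945 and 850 CPM in the mutant, and *Nanog* was at 0 in both WT libraries. The 7 neuron markers summed to 1481 and 1853 CPM in WT and to 211 and 165 CPM in the mutant, and 6 of them fell. These marker differences lie between the same groups of libraries in which the members described below were compared. Their part in the results was not tested, and in bulk RNA fewer cells of a type and less RNA per cell cannot be told apart.

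Among the members, *Pou3f2*, *Pou3f3* and *Pou4f1* were lower in *Zfp57*-/- cells by 10.3-fold to 53.4-fold, *Pou4f2* was higher by 2.63-fold, and *Pou3f1* did not pass the test. Thus 4 of 5 members were called in either direction, where 27.6% of all genes tested were (edgeR quasi-likelihood test, adjusted p under 0.05). Of them 3 were lower, as were 14.6% of all genes, and 1 was higher, as were 13.04%. The normalised values of the groups did not overlap for these 4 members, as for 66.3% of all genes tested. The median log2 fold change of all genes was -0.01.

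**Figure D1:**
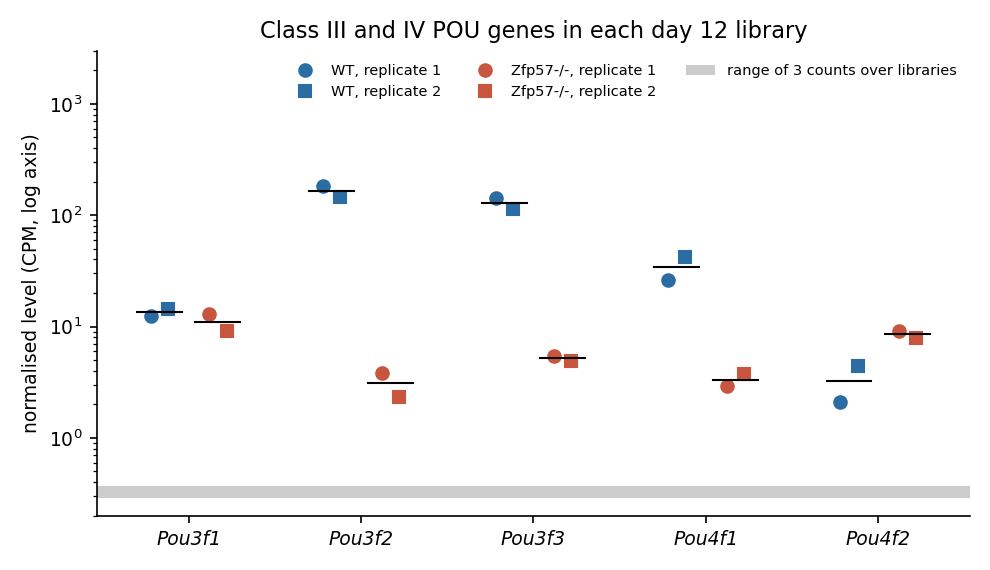
Normalised level of each gene (CPM, log axis) in the 2 WT and 2 Zfp57-/- day 12 libraries, with black lines for group means and a grey band for the level of 3 counts (0.286 to 0.371 CPM). Pou3f2 and Pou3f3 stand above 100 CPM in both WT libraries and below 6 CPM in both Zfp57-/- libraries, Pou4f1 is lower and Pou4f2 higher in the mutant, and the Pou3f1 points overlap.

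*Pou3f2* (ENSMUSG00000095139.2, chr4:22482780-22488366, minus strand), one of the factors used to turn fibroblasts into neurons, was the most abundant member in WT cells. It had 1492 and 1543 counts in the WT libraries and 36 and 23 in the *Zfp57*-/- libraries. The normalised levels were 185 and 147 CPM in WT and 3.86 and 2.35 CPM in the mutant, with means of 166 ± 26.5 and 3.11 ± 1.07 (SD, n = 2 each). Both mutant libraries were far below both WT libraries and still above the floor of 3 counts. The log2 fold change was -5.74 ± 0.29 (SE, adjusted p = 2.76e-06), with both mutant libraries lower. By p-value *Pou3f2* was number 13 among the 10083 genes with a negative fold change, and its WT level lay at percentile 94.1 of the genes tested. Over all alternative settings the log2 fold change lay between -6.47 and -5.41 and stayed past the threshold.

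*Pou3f3* (ENSMUSG00000045515.3, chr1:42695768-42703176, plus strand), which overlaps *Pou3f2* in function in the developing cortex, fell as well. Its counts were 1162 and 1188 in WT and 51 and 48 in *Zfp57*-/- libraries. The corresponding levels were 144 and 113 CPM in WT, with a mean of 129 ± 21.5, and 5.47 and 4.90 CPM in the mutant, with a mean of 5.19 ± 0.402 (SD, n = 2 each). The groups did not overlap, and the mutant libraries were close to each other. The log2 fold change was -4.63 ± 0.24 (SE, adjusted p = 3.41e-06), a 24.8-fold difference in means, and it lay between -5.37 and -4.47 over the alternatives.

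*Pou3f1* (ENSMUSG00000090125.3, chr4:124656807-124660655, plus strand), the class III member of the epiblast and of Schwann cells, behaved otherwise. It had 100 and 151 counts in WT and 121 and 90 in *Zfp57*-/- libraries, that is 12.4 and 14.4 CPM against 12.98 and 9.19 CPM. The first mutant library lay between the WT libraries and the second below them, so that the groups overlapped. The means were 13.4 ± 1.44 and 11.1 ± 2.68 CPM (SD, n = 2 each), with a log2 fold change of -0.28 ± 0.29 (SE, adjusted p = 0.524). A difference was thus not detectable at this spread, and the estimate lay between -0.91 and -0.04 over the alternatives. An antisense gene, *Gm2164*, overlaps *Pou3f1* and had 8, 5, 0 and 3 counts, and the reads were counted by strand.

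*Pou4f1* (ENSMUSG00000048349.9, chr14:104461676-104467999, minus strand), the sensory neuron and habenula factor, had 213 and 441 counts in WT and 27 and 37 in *Zfp57*-/- libraries. These were 26.4 and 42.1 CPM in WT and 2.90 and 3.78 CPM in the mutant. The WT libraries differed more from each other than for the class III members, but both were well above the mutant libraries. The means were 34.2 ± 11.1 and 3.34 ± 0.624 CPM (SD, n = 2 each), the log2 fold change was -3.35 ± 0.33 (SE, adjusted p = 7.08e-05), and the alternatives gave -3.93 to -2.98.

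*Pou4f2* (ENSMUSG00000031688.4, chr8:78433010-78436645, minus strand), the retinal ganglion cell factor, was the least abundant member in WT cells and the only one called higher in the mutant. It had 17 and 46 counts in WT and 85 and 78 in *Zfp57*-/- libraries. The levels were 2.10 and 4.39 CPM in WT and 9.12 and 7.97 CPM in the mutant, with means of 3.25 ± 1.62 and 8.54 ± 0.814 (SD, n = 2 each). The lower mutant library was above the higher WT library, and the second WT library lay well above the first. The log2 fold change was 1.37 ± 0.44 (SE), and the adjusted p of 0.0415 was just under the threshold. The call was lost without the first mutant library (adjusted p = 0.260) and without the second (adjusted p = 0.157), and with *Actb* as the scale (log2 fold change 0.88, adjusted p = 0.491).

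Levels of different members were compared per length, as RPKM, which is the CPM divided by the exon length in kilobases. In both WT libraries the order was *Pou3f2* (33.0 and 26.3 RPKM), *Pou3f3* (19.4 and 15.3), *Pou4f1* (5.64 and 9.01), *Pou3f1* (3.21 and 3.74) and *Pou4f2* (0.657 and 1.37). The values of neighbours in this order did not overlap in WT cells. In the *Zfp57*-/- libraries *Pou3f1* (3.37 and 2.39 RPKM) and *Pou4f2* (2.85 and 2.49) stood highest and exchanged places between the libraries. *Pou4f1* (0.620 and 0.809 RPKM), *Pou3f3* (0.738 and 0.662) and *Pou3f2* (0.691 and 0.420) followed, with *Pou3f3* above *Pou3f2* in both libraries and *Pou4f1* in a different place in each.

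The sum of the 5 members went from 58.9 ± 4.39 RPKM in WT to 7.52 ± 1.06 RPKM in *Zfp57*-/- cells (SD, n = 2 each). *Pou3f2* made up 50.3% ± 4.30 of this sum in WT and 7.29% ± 1.52 in the mutant, and *Pou3f3* 29.4% ± 2.75 and 9.36% ± 0.6003. *Pou3f1*, whose own level was not called, made up 5.95% ± 1.08 in WT and 38.0% ± 3.88 in the mutant. *Pou4f2* went from 1.76% ± 0.988 to 35.6% ± 1.65, and *Pou4f1* from 12.6% ± 4.98 to 9.73% ± 3.15. Thus the share of *Pou4f1* overlapped between the genotypes although its level fell. Among the 3 class III members alone, *Pou3f1* held 7.01% ± 1.75 of the sum in WT and 69.5% ± 0.998 in the mutant. The further class III gene *Pou3f4*, described below, is not in this sum.

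**Figure D2:**
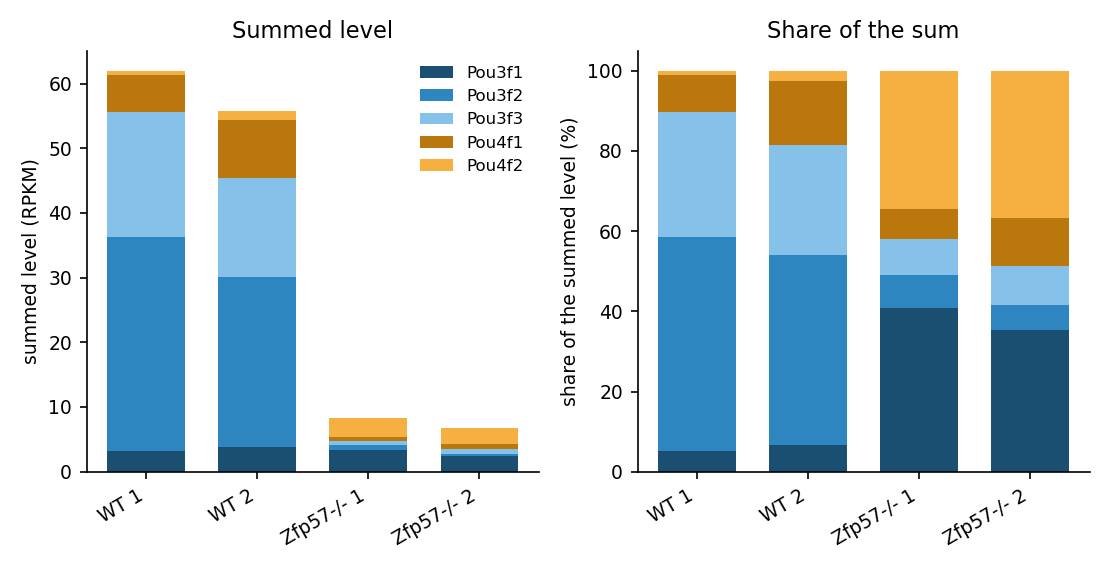
Stacked levels of the 5 genes in each library, as RPKM on the left and as percent of their sum on the right. The sum falls from a mean of 58.9 RPKM in WT to 7.52 RPKM in Zfp57-/- cells, and Pou3f1 and Pou4f2 take up most of the remaining sum in both mutant libraries.

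The rest of the POU family was compared in the same test. Of 10 further POU genes listed, 7 were tested, of which 4 were lower and 1 higher in *Zfp57*-/- cells, with a median log2 fold change of -1.84. *Pou3f4* (BRN4), the remaining class III gene, had 267 and 375 counts in WT and 10 and 12 in the mutant, and fell like *Pou3f2* and *Pou3f3* (log2 fold change -4.89, adjusted p = 5.74e-06). Per length its mean was 11.8 RPKM in WT and 0.392 RPKM in the mutant, so that 3 of the 4 class III genes fell and *Pou3f1* did not pass the test. *Pou5f1* (OCT4), the pluripotency factor, had 1 and 6 counts in WT and 2747 and 2286 in the mutant (log2 fold change 9.41, adjusted p = 1.69e-06). With a mean of 117 RPKM it was far above every class III and IV member in *Zfp57*-/- cells, while in WT cells, at 0.155 RPKM, it was below them all. *Pou2f2* (OCT2) also fell, with a log2 fold change of -4.18 (adjusted p = 0.000127). The widely expressed *Pou2f1* (OCT1) had 8.86 RPKM in WT and 9.33 RPKM in the mutant, and its change was not called (adjusted p = 0.801). *Pou1f1* and *Pou2f3* had at most 3 counts in each library, and *Pou4f3*, the third class IV gene, was not analysed here.

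**Figure D3:**
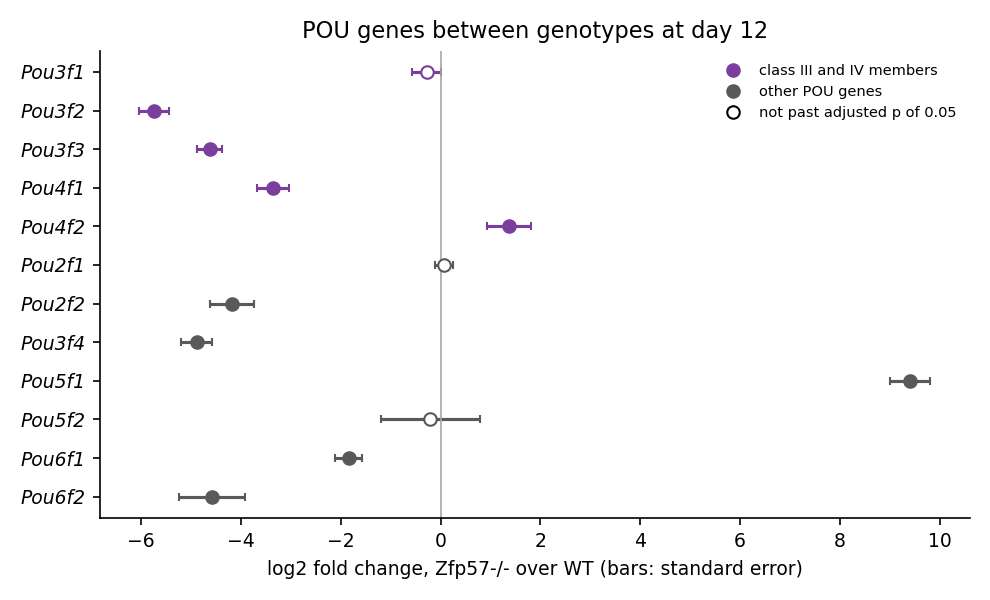
Log2 fold change between genotypes with its standard error for the 5 class III and IV members (purple) and the 7 other POU genes tested (grey), open circles not passing an adjusted p of 0.05. Pou3f2 (-5.74), Pou3f4 (-4.89) and Pou3f3 (-4.63) lie far to the left, Pou5f1 (9.41) far to the right, and Pou3f1 (-0.28) and Pou2f1 (0.07) near 0.

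Genes known to act with or under the class III factors were lower as well. Of 7 partners, mostly SOX and proneural factors, 6 were lower and none higher (median log2 fold change -2.46), and 5 were lower at an adjusted p of 0.01. *Sox11*, which drives neuronal genes after neural commitment, fell with a log2 fold change of -2.46 (adjusted p = 2.76e-05). *Myt1l*, used with *Pou3f2* to turn fibroblasts into neurons, fell with -5.20 (adjusted p = 0.000118). *Sox2* was not called (log2 fold change 0.49, adjusted p = 0.0882), and its estimate lay between -0.17 and 0.60 over the alternatives. Of 5 class III targets tested, 5 were called lower (median -2.67), and 3 to 5 when 1 library was left out. The call of *Egr2*, a hindbrain and Schwann cell gene with 122 and 46 counts in WT and 32 and 22 in the mutant, was near the threshold (-1.76, adjusted p = 0.0457) and was lost without the first WT library (-0.66, adjusted p = 0.260), and that of the progenitor filament gene *Nes* (-0.91, adjusted p = 0.00523) without the first mutant library (adjusted p = 0.145). Without the second mutant library neither was called (adjusted p = 0.140 and 0.120). The 3 with the smallest p were the radial glia lipid carrier *Fabp7* (-3.00, adjusted p = 1.37e-05), the Notch ligand *Dll1* (-2.67, adjusted p = 3.12e-05) and the neural fate gene *Pax6* (-3.03, adjusted p = 6.24e-05). A sixth listed target, *Crh*, was at 0 counts in all libraries.

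Cortical layer genes, examined because the protocol yields progenitors of cortical identity, had negative medians too. Of 4 upper-layer genes 3 fell (median log2 fold change -2.35), led by *Cux2* (-3.59, adjusted p = 3.3e-05), *Cux1* (-1.34, adjusted p = 0.000634) and *Rorb* (-3.36, adjusted p = 0.00094). Of 5 deep-layer genes 3 fell (median -2.21), namely *Bcl11b* (-3.67, adjusted p = 0.000205), *Foxp2* (-2.87, adjusted p = 0.00101) and *Sox5* (-1.37, adjusted p = 0.0108), whose call was lost without the first or the second mutant library (adjusted p = 0.0529 and 0.112). Both layer groups thus held genes with and without a call. The deep-layer gene *Tbr1* (-1.42, adjusted p = 0.249) did not pass, with 15 and 8 counts in WT and 6 and 3 in the mutant. With a filter of at least 10 counts in at least 2 libraries, 3 deep-layer genes were tested and 3 were lower.

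Genes around the class IV factors moved in both directions. Of 6 partners and upstream factors tested, 5 fell and none rose, with a median log2 fold change of -4.44, or -3.98 with *Prrxl1* at its bound. The proneural factors *Neurog2* (-5.15, adjusted p = 3.12e-05) and *Neurog1* (-4.30, adjusted p = 0.000159), which precede *Pou4f1* in sensory neurogenesis, were lower. *Prrxl1* (DRG11), a sensory neuron homeobox gene, had 23 and 55 counts in WT and 0 in both mutant libraries, at least 12.6-fold lower against a floor of 3 counts per library (adjusted p = 0.00134). Of 8 targets, 4 were lower and 2 higher (median -2.01). The neurotrophin receptor *Ntrk3* (-5.71, adjusted p = 4e-06) and the neurogenic factor *Neurod4* (-3.14, adjusted p = 6.44e-05) were lower. *Eomes*, a target of BRN3B in retinal ganglion cells that also marks early mesendoderm, rose with a log2 fold change of 5.17 (adjusted p = 1.4e-05). *Atoh7*, which precedes *Pou4f2* in the retina, had at most 3 counts in each library.

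**Figure D4:**
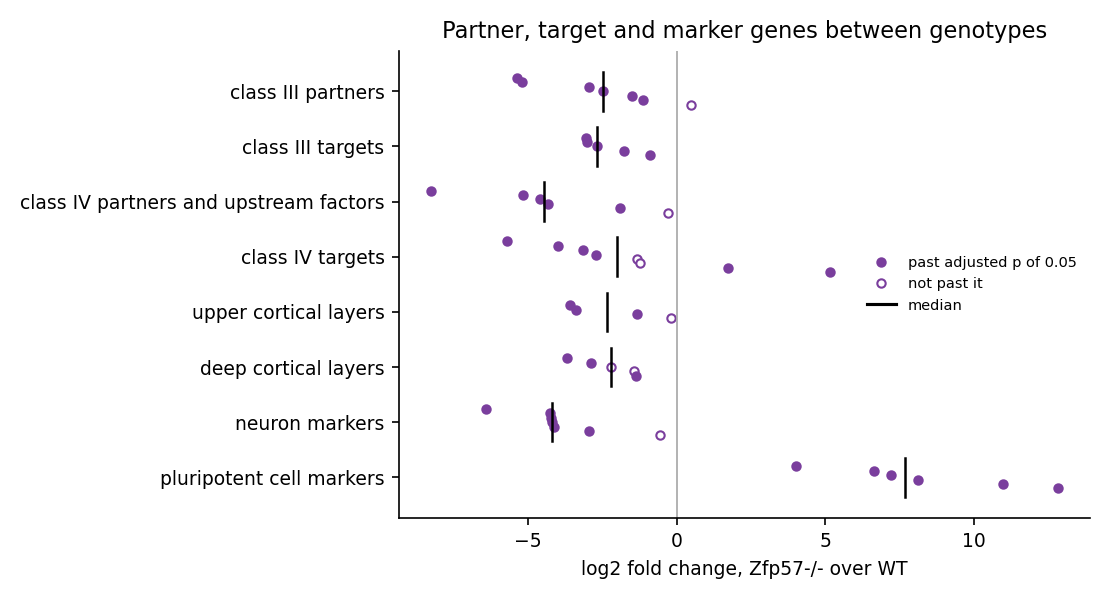
Log2 fold change between genotypes of each tested gene of 8 lists, filled where the adjusted p was under 0.05, with a black line at the list's median. Genes linked with the class III factors lie mostly left of 0 (medians -2.46 and -2.67), the class IV targets hold 2 genes called to the right, and the pluripotent cell markers reach up to 12.83, where the fitted value of Nanog and that of Prrxl1 depend on a group at 0 counts.

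Markers of cells that carry class IV factors were measured beside them. Of 9 sensory neuron and retinal ganglion cell markers, 5 were lower and 3 higher (median log2 fold change -2.44), and their summed level was 244 and 184 CPM in WT and 153 and 150 CPM in the mutant. The neurotrophin receptors *Ntrk3* (-5.71) and *Ntrk2* (-4.57, adjusted p = 4.67e-05) were lower and the peripheral intermediate filament gene *Prph* was higher (3.06, adjusted p = 0.000125). Of 6 neural crest markers 3 were lower and 2 higher (summed 192 and 256 CPM in WT, 92.7 and 103 CPM in the mutant), with *Pax3* (-3.79, adjusted p = 5.06e-06) and *Tfap2b* (-4.75, adjusted p = 1.32e-05) lower and *Foxd3* (3.56, adjusted p = 0.000465), which pluripotent cells also make, higher. Of 6 neural progenitor markers 5 fell (summed 1379 and 1624 CPM in WT, 960 and 953 CPM in the mutant), *Hes5* the most (-5.16, adjusted p = 4.58e-06). None of 6 endoderm markers was called (summed 323 and 489 CPM in WT, 446 and 610 CPM in the mutant), and of 5 endothelial markers 1 was lower and 2 higher (summed 348 and 232 CPM in WT, 240 and 291 CPM in the mutant). The endoderm result depended on the setting. With the replicate number as a block 4 were called higher, with no filter other than 1 count 3 were higher, and with *Actb* as the scale 1 was lower. None of the endothelial calls passed an adjusted p of 0.01. No marker of these 5 lists was at 0 in every library.

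Genes within 500 kb of the members were examined to see whether the differences extended over the loci. In all, 41 neighbours were tested, of which 9 were lower and 5 higher, with a median log2 fold change of -0.09. These are 22.0% and 12.2% of the neighbours, beside 14.6% and 13.04% of all genes, so that calls near the members were read locus by locus and not as a property of the loci together. The higher calls numbered 11 without the second WT library and 1 without either mutant library. Next to *Pou3f3*, *Pantr1*, a long noncoding RNA on the opposite strand that starts 0.926 kb away, had 336 and 351 counts in WT and 21 and 5 in the mutant (log2 fold change -4.76 ± 0.46, adjusted p = 7.08e-05). *Pantr2*, 3.885 kb away, had 26 and 23 counts in WT and 0 in the mutant libraries, at least 8.41-fold lower (adjusted p = 0.00275). Both noncoding genes were thus lower together with *Pou3f3*, whereas *Fhl2*, 420 kb away, was higher (2.03, adjusted p = 0.000204). A further noncoding gene, AC122898.1, overlaps *Pou3f3* on the same strand, and its 5, 7, 0 and 0 counts cannot be separated from the larger gene with certainty.

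The other loci gave fewer calls or calls in both directions. Of 3 tested neighbours of *Pou4f1*, the noncoding *D130079A08Rik*, 2.34 kb away, had 20 and 15 counts in WT and 0 in the mutant (at least 6.07-fold lower, adjusted p = 0.00599). *D130009I18Rik*, 145 kb away, had 7 and 8 counts in WT and 0 in the mutant (at least 2.53-fold lower, adjusted p = 0.0272, but 0.104 and 0.102 without the first or the second mutant library), and the median of the 3 was -5.96 as fitted or -1.34 with these genes at their bounds. Of 5 neighbours of *Pou3f2*, 1 was lower (*Faxc*, 486 kb away, -2.11, adjusted p = 0.000214). None of the 5 neighbours of *Pou4f2* was called. Of 19 neighbours of *Pou3f1*, which itself was not called, 3 were lower, namely *Rspo1* (-3.67, adjusted p = 1.73e-05), *Epha10* (-4.83, adjusted p = 5.01e-05) and *Maneal* (-1.54, adjusted p = 0.00656), and 3 were higher. The call of *Maneal* was lost without the first or the second mutant library (adjusted p = 0.0752 and 0.0694).

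The stretches upstream of the transcription starts are shown because the members differ in response and ZFP57 binds DNA at a short motif. Promoters were taken from RefSeq (GRCm38.p6), where 4 of the 5 members were matched and *Pou3f1* was not. They are printed 5′ to 3′ on the strand of the gene, ending before the RefSeq gene body, so that all 250 bases searched are shown except for *Pou4f1*, of which the first 131 are shown, at chr4:22488367-22488616 (-) for *Pou3f2*, chr1:42695518-42695767 (+) for *Pou3f3*, chr14:104468119-104468249 (-) for *Pou4f1* and chr8:78436648-78436897 (-) for *Pou4f2*. Capitals mark the letters TGCCGC or GGCCGC, the alternative forms of the hexamer that ZFP57 recognises when methylated, or the octamer ATGCAAAT of POU factors, each searched on both strands.
Pou3f2: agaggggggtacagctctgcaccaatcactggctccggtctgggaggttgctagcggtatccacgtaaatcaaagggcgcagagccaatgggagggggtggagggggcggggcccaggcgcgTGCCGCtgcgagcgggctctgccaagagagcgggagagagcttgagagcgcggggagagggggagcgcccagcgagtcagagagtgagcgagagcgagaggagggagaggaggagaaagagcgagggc
Pou3f3: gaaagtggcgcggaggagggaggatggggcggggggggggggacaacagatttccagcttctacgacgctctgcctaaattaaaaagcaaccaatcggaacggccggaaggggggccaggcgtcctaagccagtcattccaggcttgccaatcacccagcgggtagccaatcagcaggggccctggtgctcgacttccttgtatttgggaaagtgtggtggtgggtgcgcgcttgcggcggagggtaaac
Pou4f1: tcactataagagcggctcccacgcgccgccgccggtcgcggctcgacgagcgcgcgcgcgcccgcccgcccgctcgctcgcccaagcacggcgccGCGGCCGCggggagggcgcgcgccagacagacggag
Pou4f2: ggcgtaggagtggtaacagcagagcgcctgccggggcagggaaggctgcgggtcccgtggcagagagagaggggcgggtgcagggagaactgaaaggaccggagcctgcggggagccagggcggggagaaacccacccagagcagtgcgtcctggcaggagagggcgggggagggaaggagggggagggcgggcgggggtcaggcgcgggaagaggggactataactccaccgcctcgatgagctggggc
In the 250 bases searched, *Pou3f2* held TGCCGC once and *Pou4f1* held GGCCGC 3 times over both strands, while the letters were not found in the windows of *Pou3f3* and *Pou4f2*. Of 32851 RefSeq promoters, 8.68% held TGCCGC, 16.1% GGCCGC, 21.6% either of them and 1.601% ATGCAAAT, which no member's window held. All 4 windows were rich in G and C, at 66.8% for *Pou3f2*, 60.8% for *Pou3f3*, 78.0% for *Pou4f1* and 70.8% for *Pou4f2*, against a median of 52.4% over all promoters. For *Pou4f1*, 2 of the 3 matches overlap inside the printed GCGGCCGC, and the other lies in the bases not shown. Those bases fall within the RefSeq gene body and count toward its G and C share. A match describes the letters and not binding.

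The allele-specific counts were used to ask whether the members differed between the maternal (JF1) and the paternal (B6) copy, given as the ratio JF1/(JF1 + B6). In WT cells *Pou3f2* had ratios of 0.492 and 0.512 over 553 and 549 allelic reads, and *Pou3f3* of 0.450 and 0.511 over 440 and 462. *Pou4f1* had 0.608 and 0.529 over 79 and 153 reads. *Pou3f1* had 0.756 in the first library (95% Wilson interval 0.607 to 0.862, 41 reads) and 0.448 in the second (0.327 to 0.575, 58 reads), intervals that do not overlap within 1 genotype. None of the 4 tested members was called for an allelic difference in WT cells (adjusted p between 0.413 and 0.975), where 23.6% of 10977 autosomal genes were, and 0 had an unadjusted p under 0.05.

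In *Zfp57*-/- cells few allelic reads remained for the members that fell. *Pou3f2* had 3 JF1 and 16 B6 reads in the first library (ratio 0.158, Wilson interval 0.0552 to 0.376) and 7 and 4 in the second (0.636, 0.354 to 0.848), so that the libraries pointed in opposite directions. *Pou3f3* had 17 JF1 and 7 B6 reads in the first library and 12 and 6 in the second, ratios of 0.708 and 0.667 that were both above the WT libraries. Pooled, its ratio was 0.481 in WT and 0.690 (Wilson interval 0.540 to 0.809, 42 reads) in the mutant. The genotype-by-allele contrast of *Pou3f3* was 1.25 ± 0.49 on the log2 scale (SE, adjusted p = 0.0784), and 0 of 4 members were called, where 14.5% of all genes were, with 1 (*Pou3f3*) under an unadjusted p of 0.05. Without the second mutant library the contrast of *Pou3f2* was called (-2.38, adjusted p = 0.0161), and without the first it was 0.78. Within *Zfp57*-/- cells 0 of 4 members were called for an allelic difference in the edgeR test, where 21.8% of genes were, and 1, again *Pou3f3*, was under an unadjusted p of 0.05.

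The ratio of *Pou3f3* was read beside its surroundings. Over 616 genes of chromosome 1 the median ratio was 0.490 in WT and 0.620 in *Zfp57*-/- cells, and over the 15 nearest genes with enough reads it was 0.498 and 0.620. The median of the chromosome thus moved in the same direction as the member, while the ratios of the 15 nearest genes in the mutant ranged from 0.472 to 0.850, and the part of this in the *Pou3f3* ratio was not tested. On the other chromosomes of members the medians stayed between 0.482 and 0.513 in both genotypes. *Pou4f2*, with 7 and 14 allelic reads in WT, was under the minimum for a test. Its WT ratios were 0.286 and 0.714, pooled to 0.571 (Wilson interval 0.365 to 0.755). In the mutant it had 13 JF1 and 4 B6 reads in the first library and 21 and 6 in the second, pooled to 0.773 (Wilson interval 0.630 to 0.872, 44 reads). Its 15 nearest genes had a median of 0.451 in the mutant and ranged from 0.199 to 0.545. The second WT ratio lay within the mutant interval, and a difference between genotypes was not tested.

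**Figure D5:**
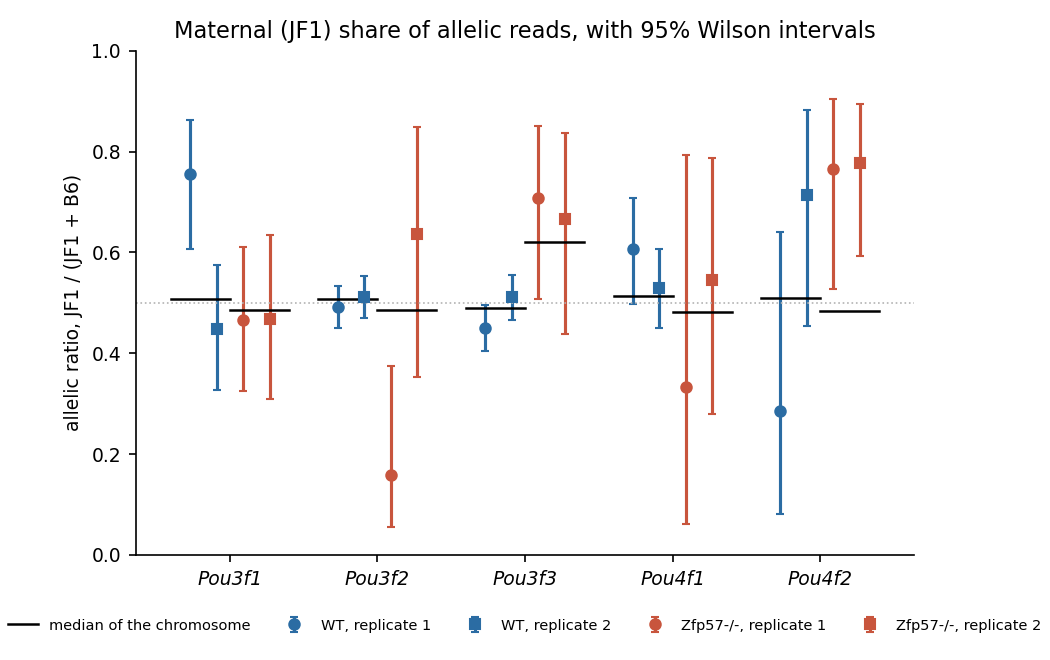
Allelic ratio JF1/(JF1 + B6) of each member in each library with its 95% Wilson interval, black lines giving the median ratio of all genes of the chromosome in WT (left) and Zfp57-/- (right). Pou3f2 and Pou3f3 lie near 0.5 with short intervals in WT, and in the mutant Pou3f3 lies at 0.708 and 0.667 beside a chromosome 1 median of 0.620, while the Pou3f2 libraries disagree.

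Both copies of each fallen member were lower. The test used here had no term for the library and took both alleles of a library as independent columns. Its p-values may therefore be too small. The JF1 and the B6 allele of *Pou3f2* changed by log2 fold changes of -5.82 (adjusted p = 1.69e-05) and -4.82 (adjusted p = 1.08e-05), those of *Pou3f3* by -3.94 (adjusted p = 1.25e-05) and -5.21 (adjusted p = 1.06e-06), and those of *Pou4f1* by -4.18 (adjusted p = 0.000457) and -3.84 (adjusted p = 0.00062). Thus 3 of 4 members tested were called lower on each allele, where 18.3% of genes were on JF1 and 15.9% on B6. Neither allele of *Pou3f1* was called (JF1 -0.77, adjusted p = 0.276, and B6 -0.06, adjusted p = 0.941).

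The genes with the profile most like each member over the 4 libraries were found by the root mean square (RMS) difference of centred log2 CPM among 11748 genes. With 4 libraries in 2 groups this likeness is a description only. For *Pou3f2* they were *Draxin* (RMS 0.120), *Lhx9* (0.124) and *C130071C03Rik* (0.125), of which *Draxin*, an axon guidance gene, had 371, 442, 10 and 5 counts. For *Pou3f3* they included *Kif5c* (0.0848) and *Srrm4* (0.0869), which encode a neuronal kinesin and a neuronal splicing factor. For *Pou4f1* they were *Smpd3* (0.0782), *Rab3a* (0.138) and *Mmp24* (0.141), of which *Rab3a* encodes a synaptic vesicle GTPase. For *Pou4f2* they were *Hist1h2bn* (0.0210), *Gbx2* (0.0557) and *Hist1h4m* (0.0646), where *Gbx2*, a homeobox gene of the hindbrain and of pluripotent cells, had 25, 71, 132 and 125 counts. For *Pou3f1*, which was not called, they were the metabolic and membrane protein genes *Ech1* (0.0255), *Tmem205* (0.0299) and *Gmpr* (0.0339). The nearest genes named for *Pou3f2*, *Pou3f3* and *Pou4f1* were all lower in the mutant, while those of *Pou3f1* were not called. This follows from their selection by likeness over the same libraries and is not a separate result.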

How the data were processed

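Total RNA of 2 wild-type and 2 *Zfp57*-/- day 12 cultures was sequenced by the authors with a stranded, ribosomal RNA-depleted protocol. Per the submitters' notes and the study's methods, reads were trimmed with Trimmomatic 0.36, aligned with STAR 2.5.4a keeping unique alignments, and counted per gene on the coding strand over exons with featureCounts (Subread 1.6.0, GENCODE vM20, GRCm38). Reads carrying an allelic difference were split with SNPsplit into JF1 and B6. The deposited values are raw read counts per gene in a bulk table of 55602 genes and an allelic table of 54750 genes with a JF1 and a B6 column for each library.

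Genes with more than 8 counts over the 4 libraries were tested by edgeR 4.0.16 in R 4.3.3 (robust quasi-likelihood fit, TMM sizes, genotype only, Benjamini-Hochberg over all genes, threshold 0.05). This stood in for the DESeq2 test of the authors, which was an alternative (DESeq2 1.42.0). The allele terms were tested with a term per library over autosomal genes with at least 10 normalised allelic counts in each WT library. The change of each allele between genotypes was tested over the same genes without a term per library. RPKM used the deposited exon lengths. Coding sequences, used in place of the planned protein comparison, were aligned with mafft 7.526. The scripts were tested on simulated counts. Depth was 7663520 to 10337082 counts per library, and with 2 libraries a group p-values measure only the spread between these cultures.

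Named genes were the members, the 3 of each list with the smallest p, up to 3 called neighbours of each member within 500 kb, and the 3 nearest profiles, except that some of these genes are not reported here. Genes outside this rule (*Gm2164*, AC122898.1, *Sox2*, *Tbr1*, *Pou2f1*, *Nanog*, *Egr2*, *Nes*, and *Crh*, *Atoh7*, *Pou1f1* and *Pou2f3* at or near 0 counts) were chosen after their values were seen. The members and lists were chosen with earlier results of these data known. Alternatives were other scalings, filters, thresholds, tools, windows and omitted libraries.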

Additional observations from a re-analysis of the deposited data

How the results depend on the processing

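Across the 12 alternative settings of the bulk test, *Pou3f2*, *Pou3f3* and *Pou4f1* were lower and past the threshold in each, and *Pou3f1* was never called. *Pou4f2* kept its direction in all 12 and its call in 8. It lost the call with *Actb* as the scale (log2 fold change 0.88, adjusted p = 0.491), at an adjusted p of 0.01 (1.37), and without the first (1.29) or the second (1.48) mutant library, where its range over the omission of each of the 4 libraries was 0.93 to 2.01, and 0 members were then called higher. With *Actb* as the scale the median of all genes moved to -0.68, with 2994 genes lower and 486 higher against 2915 and 2607, and 1 partner or target gene and 1 neighbour were called higher. The higher neighbours numbered 1 at an adjusted p of 0.01, 1 to 11 over the omissions, 3 within 250 kb and 10 within 1000 kb, and 16 neighbours were lower within 1000 kb. Of the partner, target and layer genes, 26 were lower, and 22 to 28 over the omissions. *Egr2* was also not called with upper-quartile scaling (adjusted p = 0.0547) or the stricter filter (0.0536). Genes called numbered 4912 with DESeq2, 2902 at an adjusted p of 0.01, 3480 with *Actb* and 2831 to 9947 over the omissions, against 5522.

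Replicate numbers have no stated pairing, and same-numbered libraries deviated together only weakly (correlation 0.14 over 10106 genes). With the replicate number as a replicate block, 6984 genes were called, *Pou4f2* had a log2 fold change of 1.43, and no member's call changed.

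Centred on the chromosome median, the mutant ratio was 0.482 for *Pou3f1* and 0.567 for *Pou3f3*. The genotype-by-allele contrast of *Pou3f1* ranged from -1.81 to 0.11 over the omissions, and that of *Pou3f2* from -2.38 (adjusted p = 0.0161, without the second mutant library) to 0.78 (without the first). The B6 allele of *Pou3f1* ranged from -0.54 to 0.75. Omitting 1 library leaves a group with 1, which is then assumed to vary like the other group. The causes of these changes were not tested. The 3 to 43 allelic reads of a member in a mutant library limit its ratio.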
